A study of Mus musculus with 6 samples.

Results

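The 9 transcripts described here belong to the pathways of MHC class II and costimulation in microglia of mice given methamphetamine: H2-Aa, H2-Ab1, H2-Eb1, Cd74, Ciita, H2-DMa, H2-DMb1, Cd80 and Cd86. They were taken by gene symbol, and all 9 are among the 23930 genes of the authors' deposited table. The group called Meth was made up of 3 adult wild-type (WT) C57BL/6 mice that received methamphetamine, a psychostimulant that releases monoamines, at 5 mg/kg in 4 injections spaced 2 h apart. The group called Saline was made up of 3 adult WT C57BL/6 mice that received saline on the same schedule. After perfusion, brain cells with CD11b, low CD45 and no CD206 were sorted, and RNA was read with a targeted panel that amplifies a short stretch of each transcript with its own primers. For every gene the table lists the average of each group in log2 units, the fold change, a p and a p adjusted for the false discovery rate (FDR). Values of single mice are not in it, so neither their spread nor the sequencing depth is known for any value below.

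MHC class II molecules are pairs of an alpha and a beta chain that present peptides from the endosomal route to CD4 T cells. In the endoplasmic reticulum the chains bind the invariant chain, Cd74, which is later cut down to a peptide that H2-DM removes from the groove. Transcription of the whole set depends on the coactivator Ciita, which does not bind DNA itself and acts through factors seated on conserved boxes of the class II promoters. Cd80 and Cd86, the B7 ligands, give the T cell its costimulatory signal through CD28 and its brake through CTLA-4. Microglia at rest carry little surface class II and gain it in inflammation and with age. The C57BL/6 strain makes no I-E molecule, because its H2-Ea alpha chain gene is defective, so H2-Eb1 has no partner there.

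The boxes that tie the class II genes to Ciita can be read directly in the DNA before their start sites. The stretches below, from RefSeq on build GRCm38.p6, are the 120 bases before the annotated start, written 5′ to 3′ on the gene's strand, and they are shown because the genes share them. Capitals mark TGATTGG, the core of the Y box bound by NF-Y, and any TGATG or TGACG, letters of the X2 box, that lies at most 40 bases before it. The rule marks letters wherever they fall, so a marked TGATG or TGACG need not be an X2 box. In H2-Eb1 and H2-DMb1 it marks overlapping TGATG matches without telling which of them belongs to the X2 box. In H2-Eb1 it also marks a TGATG only 1 base from TGATTGG, where the other gaps shown are 15 to 21 bases, and that match is not read as an X2 box.
H2-Aa: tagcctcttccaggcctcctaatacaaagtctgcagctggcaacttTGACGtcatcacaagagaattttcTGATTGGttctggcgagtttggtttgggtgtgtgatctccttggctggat
H2-Eb1: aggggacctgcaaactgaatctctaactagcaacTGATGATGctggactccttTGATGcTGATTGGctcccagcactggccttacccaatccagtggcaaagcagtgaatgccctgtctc
H2-DMb1: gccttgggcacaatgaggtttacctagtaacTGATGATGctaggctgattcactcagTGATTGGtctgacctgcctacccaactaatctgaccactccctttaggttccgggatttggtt
H2-DMb2: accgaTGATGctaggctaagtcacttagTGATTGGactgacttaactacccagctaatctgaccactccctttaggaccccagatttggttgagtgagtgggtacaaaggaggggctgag
H2-Ob: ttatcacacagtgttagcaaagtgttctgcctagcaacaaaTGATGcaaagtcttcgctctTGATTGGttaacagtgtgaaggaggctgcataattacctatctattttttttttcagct
H2-Oa: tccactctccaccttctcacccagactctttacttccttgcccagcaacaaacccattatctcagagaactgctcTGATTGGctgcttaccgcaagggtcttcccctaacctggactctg
These lie at chr17:34287824-34287943 (minus strand) for H2-Aa, and on the plus strand at chr17:34305747-34305866 for H2-Eb1, chr17:34153071-34153190 for H2-DMb1, chr17:34145129-34145248 for H2-DMb2, chr17:34238785-34238904 for H2-Ob and chr17:34092259-34092378 for H2-Oa. TGATTGG begins 50 bases before the start in H2-Aa, 61 in H2-Eb1 and 63 in H2-DMb1. Of 32851 RefSeq promoters, 7.23% held TGATTGG on either strand in the 250 bases before the start, and 0.636% held it with TGATG or TGACG at most 40 bases before it. H2-Oa had the Y box letters without the others. The windows of Cd80 and of H2-DMa had no TGATTGG, which says only that these letters are not in these windows. The letters were chosen with the sequences in view. Promoters of H2-Ab1, Ciita, Cd86 and Cd74 are not shown.

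None of the 9 transcripts had a deposited FDR adjusted p under 0.05, the threshold used here, and they differed in both directions. Of the 9, 0 had an FDR adjusted p under 0.05 in the authors' deposited table, where 2.24% of all 23930 genes and 0.357% of the 10375 genes with an average of at least 1 in either group did, and the lowest value was that of Cd74 (0.2758). The authors' test is not named in the sources used here. At an unadjusted p under 0.05 the table listed 2 of the 9, Cd74 higher and Cd80 lower in Meth, where 10.1% of all genes passed, 6.38% higher and 3.76% lower. Among the 10375 genes, 14.7% passed, 6.46% higher and 8.19% lower. Over the 9, 5 averages were higher in Meth and 4 lower, with a median Meth minus Saline log2 difference of 0.26, against 0.02 over those 10375 genes. Over the 8 of the 9 that are among the 10375 the median was 0.12, and over all 9 it was 0.077 with a pseudocount of 5 in place of 1. The median size of the difference, sign aside, was 0.38 for the 9 and 0.48 for the 10375. The 0.38 and the 0.077 are both the value of Ciita, which is not among the 10375 and has a Saline average below 0. In RNA of sorted populations, fewer cells of a type and less RNA per cell cannot be told apart.

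**Figure D1:**
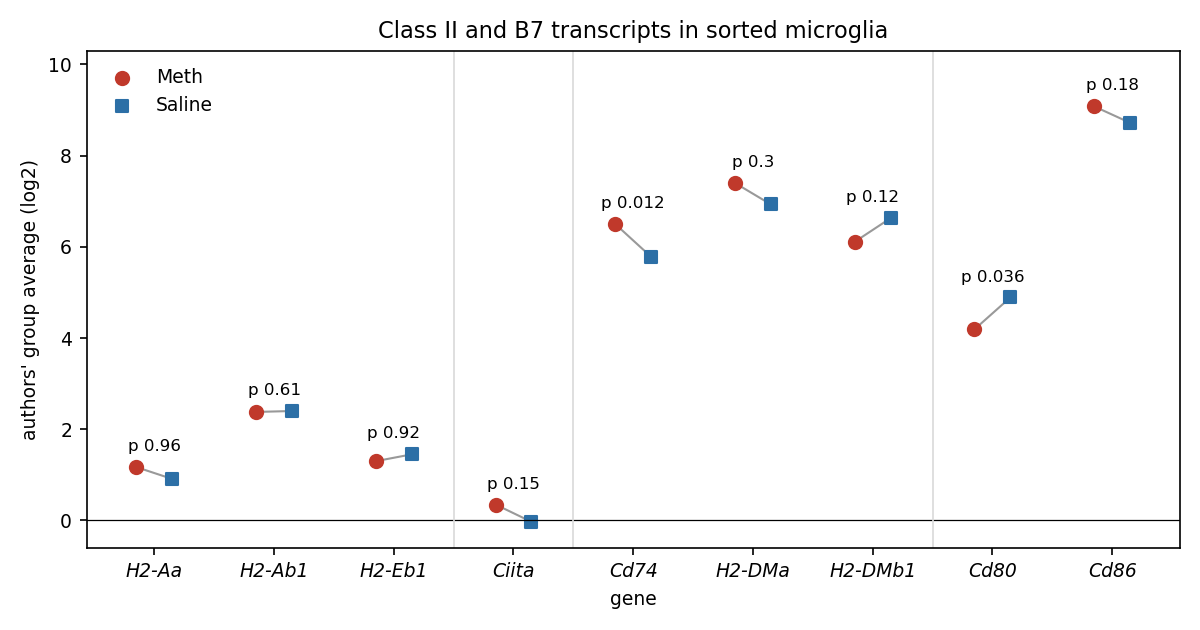
The authors' log2 group averages (y axis) of the 9 genes (x axis) in Meth (circles, left) and Saline (squares, right), with the deposited unadjusted p above each pair and thin lines joining the groups. The 3 class II chains and Ciita lie at or under 2.40 in both groups, and Cd74 (0.0116) and Cd80 (0.0363) have the lowest p, in opposite directions.

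The chains that form the peptide groove were low in both groups, with deposited differences of at most 0.26 in size on the log2 scale. H2-Aa, the alpha chain of the I-A molecule, had a log2 average of 1.17 in Meth against 0.91 in Saline in the authors' deposited table (1.21-fold higher, unadjusted p = 0.962). Its partner H2-Ab1, the I-A beta chain, stood at 2.38 in Meth against 2.40 in Saline in the authors' deposited table (unadjusted p = 0.6106). H2-Eb1, the beta chain of I-E, stood at 1.30 in Meth against 1.45 in Saline in the authors' deposited table (unadjusted p = 0.9207). All 3 had an FDR adjusted p of 1. On the reading that the averages are log2 of RPM plus 1, where RPM are reads scaled to a fixed library total, H2-Aa corresponded to 1.25 RPM in Meth against 0.879 RPM in Saline, and H2-Ab1 to 4.21 RPM in Meth against 4.28 RPM in Saline. At such levels a fold on the log2 scale of a value plus 1 understates a change: with 0.1 in place of 1, the H2-Aa difference was 0.46 on the log2 scale. With a panel of primer pairs, a low value can come from a weak pair as well as from little transcript, so levels are not compared between genes.

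Ciita, the coactivator on which the chains depend, was near 0. The authors' deposited table listed it at 0.35 in Meth against -0.03 in Saline (unadjusted p = 0.1513, adjusted p = 0.6617). The log2 of a value plus 1 cannot be below 0, so the Saline figure is not a plain average of such values, and no fold is given. The same -0.03 was listed in Saline for 423 genes, whose Meth averages ran from 0.06 to 0.79. Ciita is the only one of the 9 under an average of 1 in both groups.

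Cd74, the invariant chain, had the lowest p of the 9. It had a log2 average of 6.50 in Meth against 5.78 in Saline in the authors' deposited table, which is 1.65-fold higher (unadjusted p = 0.0116, adjusted p = 0.2758). On the RPM reading this is 89.5 RPM in Meth against 53.9 RPM in Saline. Of the 10375 genes with an average of at least 1, 372 (3.59%) had a p as low, and 32.3% had a difference at least as large in either direction.

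H2-DM is a dimer of H2-DMa and H2-DMb1, and its subunits stood on opposite sides of 0. H2-DMa had a log2 average of 7.40 in Meth against 6.93 in Saline in the authors' deposited table (1.39-fold higher, unadjusted p = 0.2989). H2-DMb1 had 6.11 in Meth against 6.63 in Saline in the authors' deposited table (1.43-fold lower, unadjusted p = 0.124). The Meth minus Saline differences of the subunits were 0.99 apart on the log2 scale, which no test covers without values per mouse. H2-DMb1 lies beside a close copy, H2-DMb2, and 27.2% of the 50-base words of its GENCODE M21 transcript also occur in transcripts of H2-DMb2, whereas those of the other 8 genes occur in no other gene's transcripts. Which stretch the panel amplifies is not given in the sources used here, so reads of the H2-DMb1 and H2-DMb2 transcripts may not be separate. H2-DMb2 stood at 4.13 in Meth against 3.81 in Saline in the authors' deposited table (unadjusted p = 0.139), the other way from H2-DMb1.

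The B7 ligands also stood on opposite sides. Cd80 had a log2 average of 4.19 in Meth against 4.89 in Saline in the authors' deposited table, which is 1.63-fold lower (unadjusted p = 0.0363, adjusted p = 0.4409). Cd86 had 9.08 in Meth against 8.72 in Saline in the authors' deposited table, which is 1.29-fold higher (unadjusted p = 0.1843, adjusted p = 0.7122). Their Meth minus Saline differences were 1.06 apart on the log2 scale, again with no test of that gap. Of the 10375 genes with an average of at least 1, 10.9% had a p as low as that of Cd80 and 44.5% as low as that of Cd86. Cd80 and Cd86 are both on chromosome 16, as is Ciita, while the class II chains and H2-DM genes are on 17 and Cd74 on 18, per GENCODE M21.

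**Figure D2:**
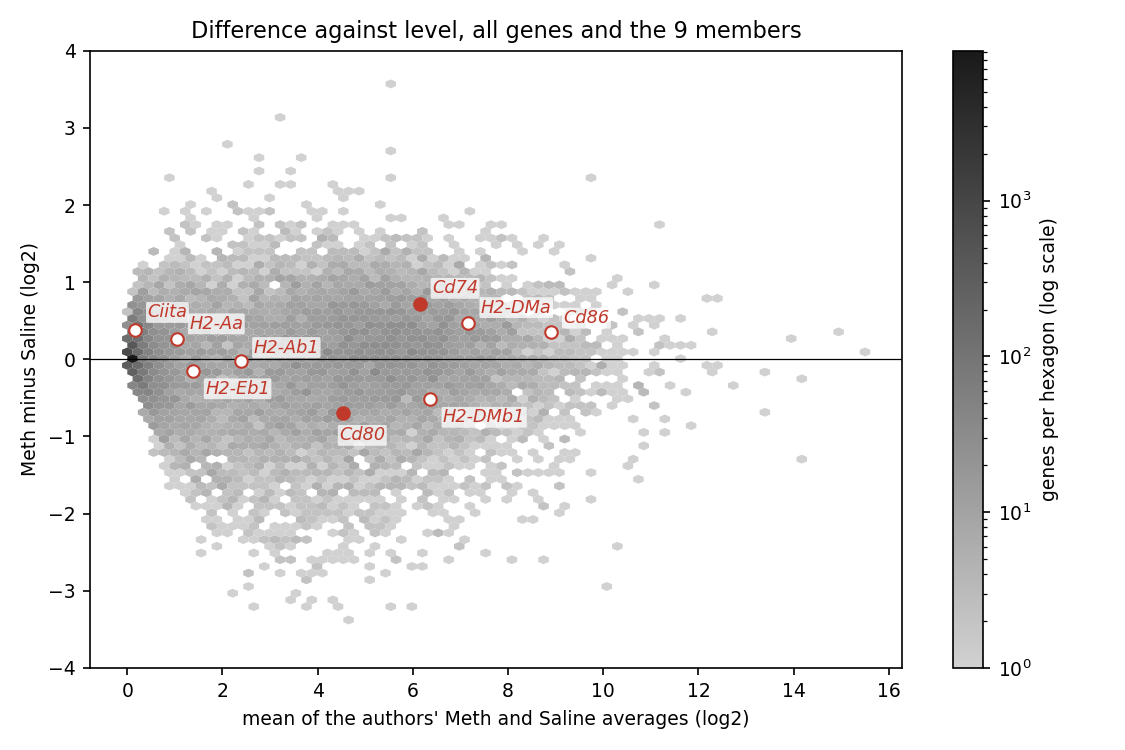
Meth minus Saline log2 difference (y axis) against the mean of both averages (x axis, log2) for all 23930 genes (grey hexagons, shade on a log scale) and the 9 genes (red circles, filled where the unadjusted p is under 0.05). The 9 lie within the cloud of the other genes, between -0.70 (Cd80) and 0.72 (Cd74).

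The differences in the deposited table varied with the base composition of transcripts, which bears on these genes unequally. Over 9965 genes with an average of at least 1 and a GENCODE M21 transcript, the median difference of genes grouped into 10 bins of GC content ran from -0.29 to 0.26. The Cd74 transcript has 56.6% GC, and the genes of its bin had a median difference of 0.25, so its difference less that median was 0.47. H2-DMa, at 55.1% GC, kept a difference of 0.32 on the same footing, and H2-DMb1, at 53.8%, one of -0.66. Cd80 and Cd86, at 42.7% and 43.2% GC, share a bin with a median of -0.14, and their differences less that median were -0.56 and 0.50. The class II chains moved too, H2-Aa to 0.18, H2-Ab1 to -0.27 and H2-Eb1 to -0.23, and Ciita to 0.23. None of the 9 changed direction. This step gives no p. It uses the GC content of a whole transcript, while the panel reads a short stretch, and the GC content of that stretch is not known.

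The deposited p-values did not follow the deposited differences closely for the class II chains. In the authors' deposited table H2-Ab1, with a difference of -0.02, had a lower p (0.6106) than H2-Aa, with a difference of 0.26 (0.962). Of the 7459 genes with an average of at least 1 and a difference at least as large as that of H2-Aa, 13 had a p at or above 0.962. Of the 289 such genes with a difference of at most 0.02, 35 (12.1%) had a p at or below 0.6106. The model behind the p-values is not given in the sources used here.

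**Figure D3:**
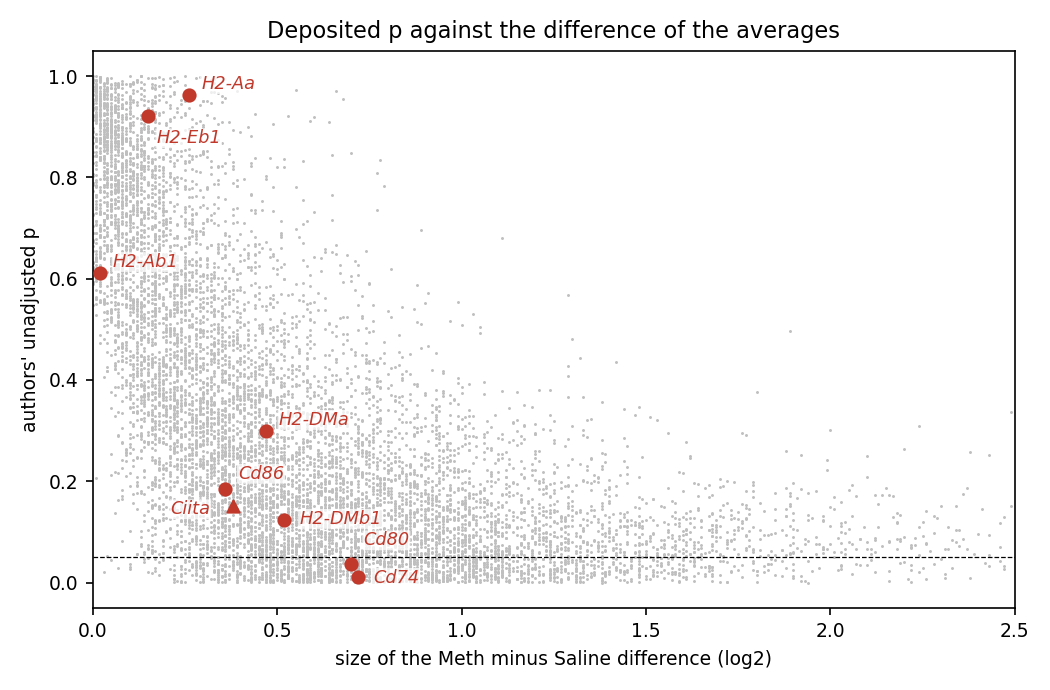
The authors' unadjusted p (y axis) against the size of the Meth minus Saline difference (x axis, log2) for genes with an average of at least 1 in either group (grey) and the 9 genes (red; Ciita, under 1, as a triangle), with a dashed line at 0.05. The 55 genes beyond 2.5 are not drawn; Cd74 and Cd80 lie under the line and H2-Aa near the top.

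Other class II chain genes gave no call. Of 5 in the table, 2 were higher, 2 lower and 1 equal, with a median log2 difference of 0.00, and 0 had an adjusted or unadjusted p under 0.05. Over all genes, 2.24% had an adjusted p and 10.1% an unadjusted p under 0.05, so 0 of 5 is near these shares. Only 3 of the 5 had an average of at least 1 in either group. H2-Oa and H2-Ob form the dimer that restrains H2-DM. H2-Oa stood at 6.50 in Meth against 6.30 in Saline in the authors' deposited table (unadjusted p = 0.2736). H2-Ob stood at 5.76 in Meth against 5.85 in Saline in the authors' deposited table (unadjusted p = 0.969). H2-Eb2 was at 0.00 in Meth against 0.01 in Saline, and H2-Ea-ps, the defective alpha chain gene, at 0 in both groups, in the authors' deposited table.

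Factors that act on class II transcription, together with the interferon-gamma signalling that induces Ciita, leaned no single way. Of 20 such genes in the table, which also counted the Cd74 protease Sppl2a, 11 were higher and 9 lower in Meth, with a median log2 difference of 0.12, and 0 had an adjusted p under 0.05. Unadjusted, 2 of the 20 passed, a share near the 10.1% of all genes and under the 14.7% of genes with an average of at least 1. Both were lower in Meth, where 3.76% of all genes and 8.19% of genes with an average of at least 1 passed as lower. Sppl2a, the intramembrane protease that clears the last membrane stub of Cd74, stood at 7.40 in Meth against 7.97 in Saline in the authors' deposited table (1.48-fold lower, p = 0.0386). Irf4, an interferon regulatory factor of lymphoid and myeloid cells, stood at 4.04 in Meth against 5.12 in Saline in the authors' deposited table (2.12-fold lower, p = 0.0366). Its relative Irf8, needed for microglial identity, stood at 7.72 in Meth against 9.56 in Saline in the authors' deposited table, a 3.60-fold difference that did not pass even unadjusted (p = 0.096). The interferon-gamma receptor chain Ifngr1 stood at 11.03 in Meth against 11.19 in Saline in the authors' deposited table (p = 0.3062). Jak1, the kinase on that receptor, stood at 8.85 in Meth against 8.41 in Saline in the authors' deposited table (p = 0.1105), and the myeloid factor Spi1 at 9.19 in Meth against 8.97 in Saline (p = 0.274). The RFX subunits that hold Ciita on the X box are named after their values were seen. In the authors' deposited table Rfx5 stood at 4.52 in Meth against 4.35 in Saline, Rfxap at 4.45 in Meth against 4.18 in Saline, and Rfxank at 4.49 in Meth against 4.14 in Saline. The NF-Y subunits of the Y box and Creb1, named likewise, did not all lean that way. Nfya stood at 8.13 in Meth against 8.03 in Saline, Nfyb at 3.65 in Meth against 4.51 in Saline (p = 0.0562) and Creb1 at 4.97 in Meth against 5.93 in Saline in the authors' deposited table. No RFX, NF-Y or CREB gene named here had an unadjusted p under 0.05.

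Genes of antigen uptake and class II peptide loading differed in both directions. Of 23 in the table, 9 were higher, 13 lower and 1 equal in Meth, with a median log2 difference of -0.17, 0 had an adjusted p under 0.05, and 4 passed unadjusted, 3 higher and 1 lower, beside 14.7% of genes with an average of at least 1. Clec7a, the beta-glucan receptor dectin-1, stood at 6.86 in Meth against 5.76 in Saline in the authors' deposited table (2.14-fold higher, p = 0.0341). Ifi30, the thiol reductase that opens disulfide bonds of antigens, stood at 9.38 in Meth against 8.88 in Saline in the authors' deposited table (1.42-fold higher, p = 0.039). The lysosomal protease Ctsd stood at 15.07 in Meth against 14.68 in Saline in the authors' deposited table (1.31-fold higher, p = 0.0115). Tlr9, the endosomal receptor for unmethylated DNA, stood at 9.31 in Meth against 10.04 in Saline in the authors' deposited table (1.66-fold lower, p = 0.0309). Ctss, the protease that makes the last cut of the invariant chain in most antigen-presenting cells, stood at 12.38 in Meth against 12.03 in Saline in the authors' deposited table (p = 0.0711). Ctsb stood at 12.60 in Meth against 11.81 in Saline (p = 0.0694), and the asparagine endopeptidase Lgmn at 12.31 in Meth against 12.48 in Saline (p = 0.5768), in the authors' deposited table.

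Beyond Cd80 and Cd86, 24 ligands and partners of costimulation or coinhibition were in the table, and 12 were higher, 7 lower and 5 equal in Meth, with a median log2 difference of 0.04 that turned to -0.03 when centred on genes with an average of at least 5. Unadjusted, 2 of the 24 passed, both higher, where 6.38% of all genes passed as higher. The single gene with an adjusted p under 0.05 was Tnfsf4, the OX40 ligand, which the authors' deposited table listed near 0, at 0.07 in Meth against -0.03 in Saline (adjusted p = 0.0003). Of the 536 genes with an adjusted p under 0.05 in the authors' deposited table, 499 had averages under 1 in both groups. A Saline average below 0, like that of Tnfsf4, was listed for 484 of the 536. Pvr, the ligand of CD226 and TIGIT, stood at 4.62 in Meth against 3.51 in Saline in the authors' deposited table (2.16-fold higher, unadjusted p = 0.019, adjusted p = 0.3519). Icosl, the ligand of ICOS, stood at 7.40 in Meth against 6.62 in Saline in the authors' deposited table (unadjusted p = 0.1249). The adhesion ligand Icam1 stood at 6.94 in Meth against 6.31 in Saline in the authors' deposited table (unadjusted p = 0.0525). The B7 relative Cd276 stood at 6.90 in Meth against 6.32 in Saline (p = 0.3253), and the galectin Lgals9 at 8.13 in Meth against 7.67 in Saline (p = 0.4963), in the authors' deposited table.

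**Figure D4:**
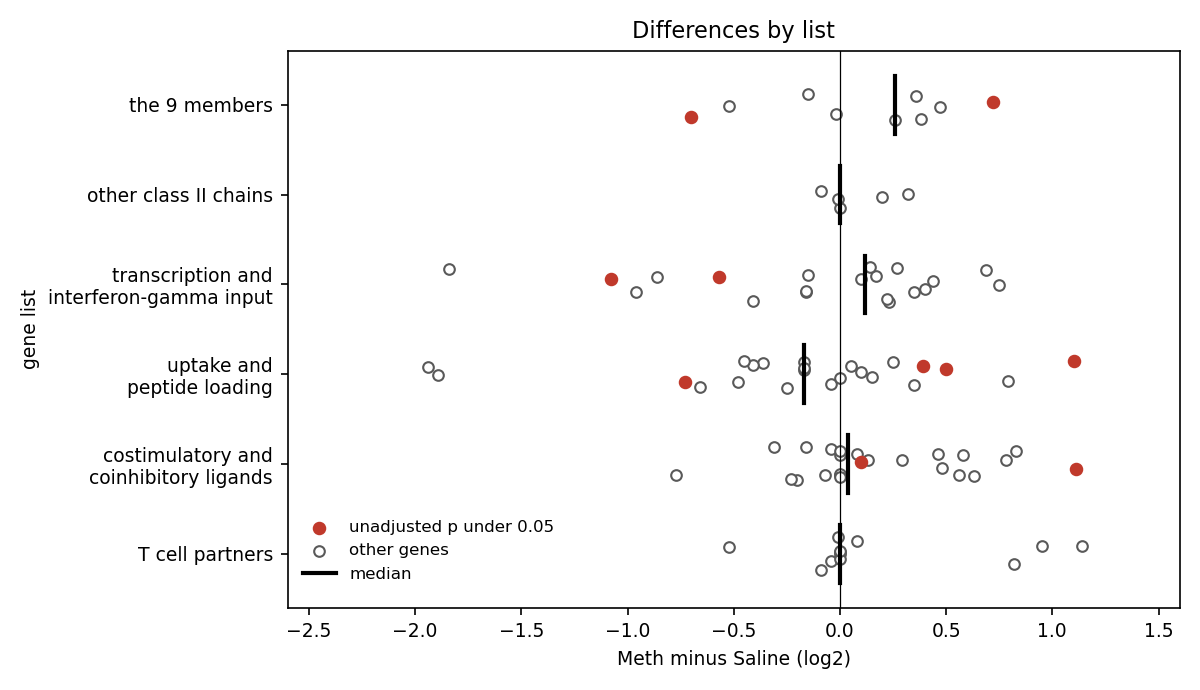
Meth minus Saline log2 differences (x axis) of the 9 genes and of 5 pathway lists (y axis), a point per gene, filled where the unadjusted p is under 0.05, with a bar at each median; vertical scatter within a list carries no meaning. List medians lie between -0.17 and 0.26.

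Class II is carried at high levels by dendritic cells, B cells and border-associated macrophages, so their markers are given beside the results. A listed 0 can also come from primers that gave no reads: Rab7, a GTPase of late endosomes in every cell, was at 0 in both groups in the authors' deposited table. Ms4a1 and Pax5, which define B cells, were at 0 in both groups, and 5 of the 9 B cell markers in the table were; the list took 0.00833% of the summed linear values in Meth against 0.00581% in Saline, computed from the authors' deposited table. The sum rested on Cd22 (5.47 in Meth against 4.38 in Saline) and Cd79b (5.30 in Meth against 5.32 in Saline) in the authors' deposited table. The other 7 of the 9 were under 1 in both groups, so the higher share in Meth is that of Cd22. Of 15 dendritic cell markers, 9 were under 1 in both groups and 3 at 0, Cd209a, Clec10a and Kmo; 6 were higher, 5 lower and 4 equal in Meth. The dendritic cell growth factor receptor Flt3 stood at 1.23 in Meth against 2.03 in Saline in the authors' deposited table (unadjusted p = 0.0399). Ccr7 was the dendritic marker with an adjusted p under 0.05, near 0 at 0.07 in Meth against -0.03 in Saline in the authors' deposited table (adjusted p = 0.0003). The averages and adjusted p of Ccr7 are the same as those listed for Tnfsf4. The dendritic list took 0.395% in Meth against 0.331% in Saline, resting on Sirpa (11.90 in Meth against 11.69 in Saline in the authors' deposited table), which microglia also express. Border-associated macrophage markers took 0.00348% in Meth against 0.00326% in Saline, with Mrc1, which encodes the CD206 gated against, at 4.80 in Meth against 4.44 in Saline and Lyve1, Ms4a7 and Cd209f at 0 in the authors' deposited table. Of these 12 markers 3 were higher, 5 lower and 4 equal in Meth, with Ccl24 at 2.47 in Meth against 3.21 in Saline and Folr2 at 1.11 in Meth against 1.90 in Saline in the authors' deposited table. Monocyte markers took 0.0382% in Meth against 0.0135% in Saline, most of it Lyz2 (8.54 in Meth against 7.01 in Saline in the authors' deposited table), which microglia also express. Of the 9 monocyte markers listed, 2 were higher, 6 lower and 1 equal in Meth, with a median log2 difference of -0.32. Ccr2 stood at 1.58 in Meth against 1.90 in Saline and Plac8 at 0.36 in Meth against 2.15 in Saline in the authors' deposited table. Lyz1, close in sequence to Lyz2, had an adjusted p of 0.0268 at 0.28 in Meth against 0.06 in Saline in the authors' deposited table. T and NK cell markers took 0.00381% in Meth against 0.00899% in Saline, nearly all of it Il7r (5.24 in Meth against 6.52 in Saline in the authors' deposited table, unadjusted p = 0.023). The other 9 of these 10 markers were under 1 in both groups, with Cd3e and Cd8a at 0. The part of these cells in the class II values was not tested.

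All 12 microglial markers had log2 averages of at least 6.81 in both groups, the lowest being Sall1 in Meth. The gate's own genes Itgam (11.66 in Meth against 11.49 in Saline) and Ptprc (7.77 in Meth against 7.78 in Saline) differed little in the authors' deposited table. Of the 12, 2 were higher, 9 lower and 1 equal in Meth, 3 of the lower ones at an unadjusted p under 0.05. Among all genes with an average of at least 1 in either group, 8.19% passed as lower. P2ry12 stood at 9.20 in both groups in the authors' deposited table, and Tmem119 at 10.85 in Meth against 11.75 in Saline.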

How the data were processed

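RNA of sorted microglia from 3 Meth and 3 Saline mice was turned into amplicon libraries for an Ion S5XL sequencer, per the labels' protocols. All values come from 1 table of Meth against Saline. Per the file headers, its columns are log2 averages of each group, a fold change, a p-value and an FDR p-value, all computed by the authors. The deposited fold change is treated as a score, a signed ratio of Meth over Saline that is negative where Saline is higher, and it matches the difference of the averages within 0.0166 on the log2 scale. Adjusting the p-values again by Benjamini and Hochberg gave the deposited FDR column to within 0.00232. Linear values (the antilog of each average less 1, not below 0) sum to 981392 in Meth against 1012103 in Saline, from which the scale is read as log2 of RPM plus 1. Not given in the sources used here are the aligner, genome build, normalization and statistical model. The file has 0 columns per mouse, so depth is unknown and no interval can be given.

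The call threshold was 0.05 on the deposited FDR column. The members and lists were chosen with earlier results of these data known. Named genes were all 9 members, the genes of each pathway list with an unadjusted p under 0.05 and its 4 highest averages, the 3 highest averages of each marker list, and Mrc1, Itgam, Ptprc, P2ry12, Tmem119, Flt3 and Ccr2, leaving out genes that are not reported here; markers stated to be at 0, Rab7, Ccr7, Lyz1, Sall1, H2-Ea-ps, Cd28, Ctla4, Cd4, the RFX and NF-Y subunits and Creb1 were added after their values were seen. GC content came from the longest coding transcript of GENCODE M21 and promoters from RefSeq (GRCm38.p6). Alternatives were 2 centrings, pseudocounts of 0.1 and 5, floors of 1 and 3 on the log2 average, other thresholds and, added later, centring within 10 bins of GC content. The adjustment was tested on simulated data. Python 3.11.15, numpy 2.4.6, pandas 2.3.3 and matplotlib 3.10.9 were used.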

Additional observations from a re-analysis of the deposited data

How the results depend on the processing

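The count of 0 members at an FDR adjusted p under 0.05 was also 0 with the deposited p-values adjusted over genes with an average of at least 1 or at least 3, and at a threshold of 0.10. Of the 2 members at an unadjusted p under 0.05, 0 passed 0.01, and 2 passed 0.10. The median log2 difference of the members, 0.26, was 0.36 with a pseudocount of 0.1, 0.077 with 5, and 0.12 over the 8 members with an average of at least 1. With genes under 1 left out, list medians moved to 0.20 (other class II chains), 0.29 (costimulation) and 0.885 (T cell partners). These medians rest on the 3, 15 and 4 genes that remained. The uptake and loading median moved to -0.040 with a pseudocount of 5. The costimulation median moved to -0.03 when centred on genes with an average of at least 5. The last 2 moves follow from the settings themselves. A larger pseudocount shrinks the differences of genes at low levels most, and this centring takes the same 0.07 off every gene. Of 45 alternative values of single members, 33 stayed within 0.1 on the log2 scale and 12 moved further, 7 of them under centring within GC bins, and 0 changed sign. No paired analysis was possible because the table holds no values per mouse, and for the same reason leaving out each replicate was not run: whether a difference rests on 1 mouse cannot be told.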

Other observations

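T cell receptors for these ligands, some of which myeloid cells also express, were counted as well. Of 12 in the table, 4 were higher, 4 lower and 4 equal in Meth, 0 had an adjusted or unadjusted p under 0.05, and 8 were under a log2 average of 1 in both groups, among them Cd28, Ctla4 and Cd4. The shares over all genes were 2.24% for the adjusted and 10.1% for the unadjusted p. Lag3, an inhibitory receptor that binds class II and is made by microglia, stood at 8.48 in Meth against 8.49 in Saline in the authors' deposited table (unadjusted p = 0.7848). Havcr2, the inhibitory receptor TIM-3, stood at 7.90 in Meth against 6.76 in Saline in the authors' deposited table, 2.21-fold higher with an unadjusted p of 0.2818. Pdcd1 stood at 4.23 in Meth against 3.41 in Saline (unadjusted p = 0.3055), and Icos at 2.52 in Meth against 1.57 in Saline (unadjusted p = 0.2887), in the authors' deposited table.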
